A study of Mus musculus with 15 samples.

Results

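The levels of mmu-miR-122 were followed in mouse liver grafts from day 5 to day 100 after transplantation. It was 1 of the 567 mouse miRNAs on an Agilent array with a single dye, and its values were all the spots that carried its name on 15 arrays, 1 liver graft per array. Each of 5 groups had 3 mice. One group had received syngeneic grafts, taken on day 5, and the other groups were allografts taken on day 5, 8, 14 or 100 posttransplant. For the allografts, male B10.BR mice (H2-Kk) were the donors and B10.D2 mice (H2-Kd) the recipients. According to the study, no immunosuppressant was given. No genetic change, drug or age is named for any group. The labels of the syngeneic arrays name the same allogeneic pair, so that only the titles mark them as syngeneic, and their strain is not given in the sources used here. No normal liver and no syngeneic graft later than day 5 was among the arrays, so that day and graft type differ together between the syngeneic grafts and the allografts of days 8, 14 and 100.

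MiR-122 is the miRNA best known from the hepatocyte, the main cell of the liver, where it accounts for much of the mature miRNA and is hardly made by other cell types. It represses genes that the adult liver keeps low and takes part in cholesterol and fatty acid metabolism, and injured hepatocytes release it into the blood. A graft under rejection holds donor hepatocytes, bile duct and vessel cells together with recipient leukocytes. In RNA from a whole graft, fewer hepatocytes and less miR-122 per hepatocyte cannot be told apart.

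Shown by sequence are 4 other miRNAs on which the results below turn: the 3 whose pattern over the arrays was most like that of miR-122, and 1 leukocyte marker whose pattern ran the other way. The mature sequences are those of RefSeq (GRCm38.p6), 5′ to 3′, with the seed (bases 2 to 8, the stretch that pairs with target mRNAs) in capitals. The array names the first 3 without an arm, and the arm shown is the one that the older name without an asterisk stands for.
miR-194-5p: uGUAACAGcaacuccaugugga
miR-192-5p: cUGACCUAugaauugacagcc
miR-148a-3p: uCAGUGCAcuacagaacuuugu
miR-342-3p: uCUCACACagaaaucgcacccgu
No pair of the 4 shares a seed. The hairpin of miR-192 and one of the hairpins of miR-194 are neighbors on chromosome 19 in that annotation, whereas miR-148a lies on chromosome 6 and miR-342 on chromosome 12.

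The signal of miR-122 was far above background on every array. It was measured by 2 probes in 20 spots per array, of which 17 to 20 were used after outlier spots had been left out. All 20 spots were marked well above background on each of the 15 arrays, none was saturated, and the brightest had a median intensity of 17093 against a saturation level of at least 65342. Within an array the spots of probe 1 varied by 1.37 to 8.55% (coefficient of variation) and those of probe 2 by 5.41 to 8.997%, which is the technical spread of the spots and not that between grafts. Probe 2 was 2.27 to 2.78 times as bright as probe 1, so that the ratio of the probes moved little between arrays. Ranked by summed intensity among the mouse miRNAs, miR-122 was first on replicate 1 of the syngeneic grafts and on all 3 arrays of day 100, and lower but among the 3 brightest elsewhere. Intensities of different probes depend on their sequences, and such a rank compares signals and not numbers of molecules.

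Before any scaling between arrays, the summed intensity of the miR-122 probes was 13026, 10439.7 and 18150.0 in the syngeneic grafts. Allografts had 15674, 20244 and 9783 on day 5, 15045, 16047 and 15823 on day 8, 9002, 10542 and 14751 on day 14, and 20664, 12193 and 14953 on day 100. The arrays of every group overlapped with the syngeneic ones on this scale, and the 5 groups did not differ in an exact permutation test of the F statistic (p = 0.586). Over the same 15 arrays the 75th percentile of the 52 miRNAs detected on all arrays was 395 to 616 in the syngeneic grafts, 457 to 949 on day 5, 718 to 829 on day 8, 750 to 1018 on day 14 and 516 to 1002 on day 100. On days 8 and 14 this percentile lay above all syngeneic arrays. The summed signal of all mouse miRNAs did not follow it: it was 53589 to 101270 in the syngeneic grafts, 78357 to 102725 on day 5, 66987 to 79105 on day 8, 70204 to 84347 on day 14 and 50516 to 88478 on day 100, and all groups overlapped with the syngeneic one. All following values are relative to other miRNAs of the same array. The labels state an equal mass of total RNA for each array, and whether its miRNA content differed between groups was not tested.

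Scaled signals are intensities divided by this 75th percentile. The scaled signal of miR-122 was 25.3, 26.4 and 29.5 in the syngeneic grafts (27.1 ± 2.16, SD, n = 3). On day 5 the allografts had 17.7, 21.3 and 21.4 (20.1 ± 2.12), and on day 8 they had 20.9, 20.6 and 19.1 (20.2 ± 0.996). The lowest values were those of day 14, with 11.0, 14.1 and 14.5 (13.2 ± 1.92), and day 100 had 20.6, 23.6 and 19.3 (21.2 ± 2.22).

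**Figure D1:**
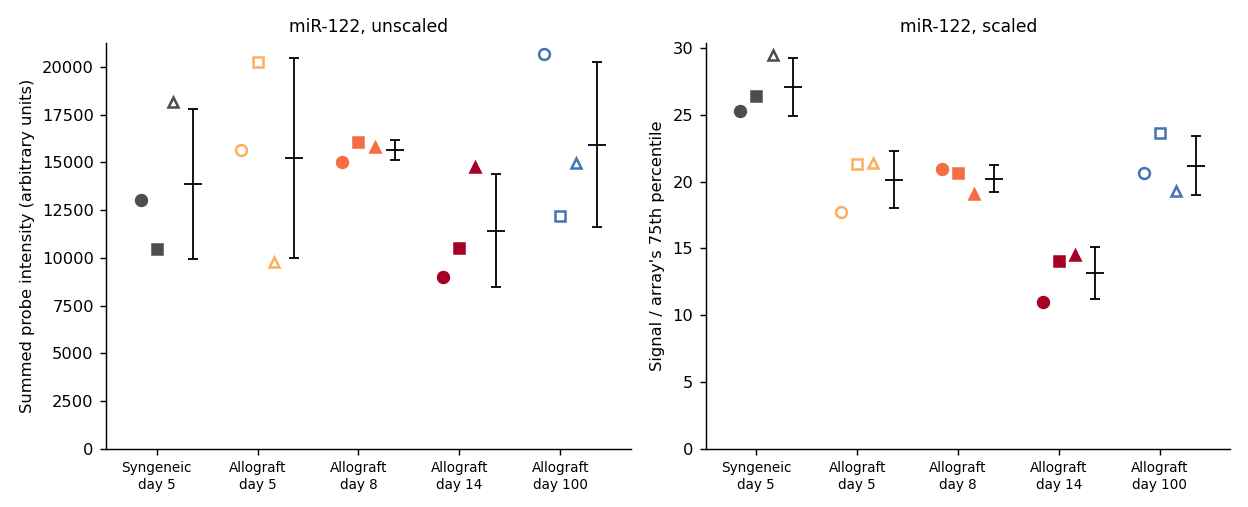
Signal of miR-122 on each of the 15 arrays, by group, as the summed probe intensity (left, arbitrary units) and after division by the array's 75th percentile (right, no unit). Circles, squares and triangles are replicates 1, 2 and 3, filled symbols lie on slide 1 and open ones on slide 2, and the black bar gives the mean ± SD of the 3 arrays. On the left, the groups overlap with the syngeneic grafts, whereas on the right all 12 allograft arrays (11.0 to 23.6) lie below the 3 syngeneic ones (25.3 to 29.5).

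On the scaled signal every allograft array was below every syngeneic array, and every array of day 14 was below all arrays of the other days. The 5 groups differed, both in limma's moderated F test (F = 13.0, adjusted p = 0.00123) and in an exact permutation test over all 1401400 divisions of the arrays (p = 0.000167). The moderated F test gave an adjusted p under 0.05 for 66 of the 103 miRNAs tested. Separation of this kind was common among the 103 miRNAs tested: the arrays did not overlap with the syngeneic ones for 30.1% of them (day 5), 51.5% (day 8), 54.4% (day 14) and 29.1% (day 100), and day 14 did not overlap with days 5, 8 and 100 for 42.7%, 46.6% and 65.0%. Between any 2 groups of 3 the exact permutation test cannot go below p = 0.1, which is the value that each of the 4 comparisons with the syngeneic grafts gave.

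The fall was deepest on day 14 posttransplant. Compared with the syngeneic grafts, the scaled signal of miR-122 on day 14 was lower by a log2 fold change of -1.05 (SE 0.15, 95% interval -1.37 to -0.73), or 2.07-fold, which left 48.4% of the syngeneic level (limma, adjusted p = 7.87e-05). In this comparison 45.6% of the tested miRNAs were called, that is had an adjusted p under 0.05, and 18.4% were called lower. The median log2 fold change of all tested miRNAs was 0.07. The call held without any single array, with log2 fold changes of -1.12 to -0.92. Without scaling the log2 fold change was -0.27 (adjusted p = 0.549), while the median of all tested miRNAs stood at 0.71, and with quantile normalization, under which a miRNA among the 3 brightest of every array can take only the top 3 values, the direction turned (0.38, adjusted p = 0.474).

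On days 5 and 8 the fall was smaller and its call was fragile. The log2 fold change of the scaled signal over the syngeneic grafts was -0.43 (SE 0.15) on day 5 and -0.42 (SE 0.15) on day 8, or 1.35-fold and 1.34-fold lower. Both passed the test narrowly (limma, adjusted p = 0.0497 and 0.0377), in comparisons that called 25.2% and 40.8% of the tested miRNAs. The call of day 5 was lost when any one array was left out except replicate 1 of day 14, with log2 fold changes of -0.48 to -0.34. That of day 8 was lost without replicate 2 or 3 of the syngeneic grafts or any one array of day 8, with -0.44, -0.36 and -0.45 to -0.38. The direction turned on both days without scaling (0.11 and 0.21) and with quantile normalization (0.07 and 0.38), and on day 8 also with scaling to the sum of the other mouse miRNAs (0.44).

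On day 100 the mean scaled signal lay near those of days 5 and 8. The log2 fold change over the syngeneic grafts was -0.36 (SE 0.15, 95% interval -0.68 to -0.03), or 1.28-fold lower, and did not pass the test (limma, adjusted p = 0.0757), where 31.1% of the tested miRNAs did. Replicate 1 of day 100 was a noisier array: the additive error given by the software was 13.1 intensity units there and 2.67 to 3.66 elsewhere. It also detected the fewest mouse miRNAs, 60 against 71 to 115. Its log2 signals correlated with the other arrays of day 100 at 0.70 and 0.72, and other pairs within a group at 0.92 or more. Without this array the fold change over the syngeneic grafts still did not pass. That fit kept the scale, whose 52 miRNAs had to be detected on this array too.

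Among the allografts, the scaled signal of day 14 was called against each other day in the fit without the slide. The remaining days were not called against each other in that fit. Compared with day 14, the scaled signal of day 100 was 1.62-fold higher (log2 fold change 0.69, SE 0.15, limma, adjusted p = 0.00345), in a comparison that called 51.5% of the tested miRNAs. The signal of day 14 was also 1.54-fold lower than that of day 5 (-0.62, adjusted p = 0.0125, 12.6% called) and 1.55-fold lower than that of day 8 (-0.63, adjusted p = 0.0475, 5.83% called). The call against day 5 was lost without replicate 1 of day 14 (-0.49) or replicate 2 of day 5 (-0.57). The call against day 8 was lost in 10 of the 15 fits that left out 1 array, with log2 fold changes of -0.70 to -0.50. In order of the mean scaled signal the groups were the syngeneic grafts, day 100, day 8, day 5 and day 14. The neighbors day 100 and day 8 differed by a log2 fold change of 0.06 (95% interval -0.26 to 0.38), and day 8 and day 5 by 0.01 (-0.31 to 0.33), both within the spread between grafts.

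The order of day 14 and day 100 was lost with 1 of the references used for scaling. Among 22 other settings of the processing, the direction turned under this 1 only, and the call was lost under 5 more. With the mean of the let-7 members detected on all arrays as the reference, the log2 fold change of day 100 over day 14 was -0.03 (adjusted p = 0.886), and that of day 100 over the syngeneic grafts was -0.77 (limma, adjusted p = 0.00472). The let-7 family is made in most tissues and is often taken as a steady reference. Of its 8 tested members, 3 were themselves called higher on day 100 than in the syngeneic grafts (let-7a, let-7c and let-7d, with log2 fold changes of 0.64, 0.66 and 0.60), where 16.5% of all tested miRNAs were. On day 14, let-7f and let-7g were called lower (-0.60 and -0.61) and let-7i was called higher (0.78), where 18.4% of all tested miRNAs were called lower and 27.2% higher. Let-7i was also the single member called on days 5 and 8 (0.77 and 0.68).

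The arrays lay on 2 slides, and the slides held different groups. Slide 1 held days 8 and 14 and replicates 1 and 2 of the syngeneic grafts, and slide 2 held days 5 and 100 and replicate 3 of the syngeneic grafts. Within slide 1 the scaled signal of miR-122 was lower than in the 2 syngeneic grafts by -0.98 on day 14 (limma, adjusted p = 0.00168) and by -0.36 on day 8 (adjusted p = 0.0945), and day 14 was lower than day 8 by -0.63 (adjusted p = 0.0467). Within slide 2 the syngeneic group is a single array, which is assumed to vary like the arrays of days 5 and 100, and the log2 fold changes were -0.55 on day 5 (adjusted p = 0.172) and -0.48 on day 100 (adjusted p = 0.199). With the slide in the fit as a block, day 14 was called against the syngeneic grafts (-0.98, adjusted p = 0.000311) and not against day 5 (-0.43, adjusted p = 0.355) or day 100 (0.50 for day 100 over day 14, adjusted p = 0.197). In this fit only the 3 syngeneic arrays connect the slides.

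As a share of the summed signal of all 567 mouse miRNAs, miR-122 gave a different picture. Its share was 24.3, 10.9 and 17.9% in the syngeneic grafts, a wider range than that of the 5 group means. On day 5 it was 15.6, 19.7 and 12.5%, on day 8 22.5, 22.8 and 20.0%, on day 14 12.8, 14.6 and 17.5%, and on day 100 23.4, 24.1 and 22.1%. The means were 17.7 ± 6.70% (SD, n = 3) in the syngeneic grafts, then 15.9 ± 3.62%, 21.7 ± 1.51%, 14.97 ± 2.36% and 23.2 ± 1.00% in the allografts of days 5, 8, 14 and 100. All 4 allograft groups overlapped with the syngeneic grafts. The arrays of day 14 lay below those of days 8 and 100, 2 comparisons in which 39.8% and 59.2% of the tested miRNAs did not overlap. Those of day 5 also lay below those of days 8 and 100, where 71.8% and 41.7% did not overlap, and days 5 and 14 overlapped.

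No comparison of the share passed the test. The log2 fold changes of the share over the syngeneic grafts were -0.10 on day 5 (limma, adjusted p = 0.892), 0.37 on day 8 (adjusted p = 0.242), -0.18 on day 14 (adjusted p = 0.595) and 0.46 on day 100 (adjusted p = 0.179), in comparisons that called 21.4%, 55.3%, 51.5% and 41.7% of the tested miRNAs. Of the 10 pairs of groups, day 100 over day 14 came nearest (0.64, SE 0.27, adjusted p = 0.0751, 30.1% of miRNAs called) and was the single pair with an unadjusted p under 0.05 (0.0324). Of the other pairs of allograft days, day 8 over day 5 called 6.80% of the miRNAs, day 14 over day 5 23.3%, day 100 over day 5 12.6%, day 14 over day 8 2.91% and day 100 over day 8 16.5%. Without replicate 1 of the syngeneic grafts, the share was called higher on day 8 (0.63, limma, adjusted p = 0.0469) and day 100 (0.73, adjusted p = 0.0338), and its direction turned on day 5 (0.16) and day 14 (0.086). Day 100 over day 14 was called without replicate 1 or replicate 2 of the syngeneic grafts (adjusted p = 0.0395 and 0.0158), and day 100 over day 5 without replicate 2 (0.57, adjusted p = 0.0400). Over the 5 groups the exact permutation test gave p = 0.0867.

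The spread of the share in the syngeneic grafts went together with 1 other name on the array, miR-720, which is now held to be a piece of a transfer RNA. Its own share of the summed signal was 10.8, 61.1 and 29.0% in the syngeneic grafts, 13.3, 10.7 and 31.4% on day 5, 2.65 to 3.18% on day 8, 3.96 to 7.76% on day 14 and 8.74 to 15.6% on day 100. The syngeneic array with the smallest share of miR-122 was the one with the largest share of miR-720, and likewise on day 5. On days 8, 14 and 100 the array with the smallest share of miR-122 had the smallest share of miR-720. MiR-21, which rises in many injured tissues, held 11.2 to 22.8% in the syngeneic grafts, 25.6 to 34.5% on day 5, 26.3 to 31.8% on day 8, 28.2 to 33.6% on day 14 and 15.9 to 19.8% on day 100.

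**Figure D2:**
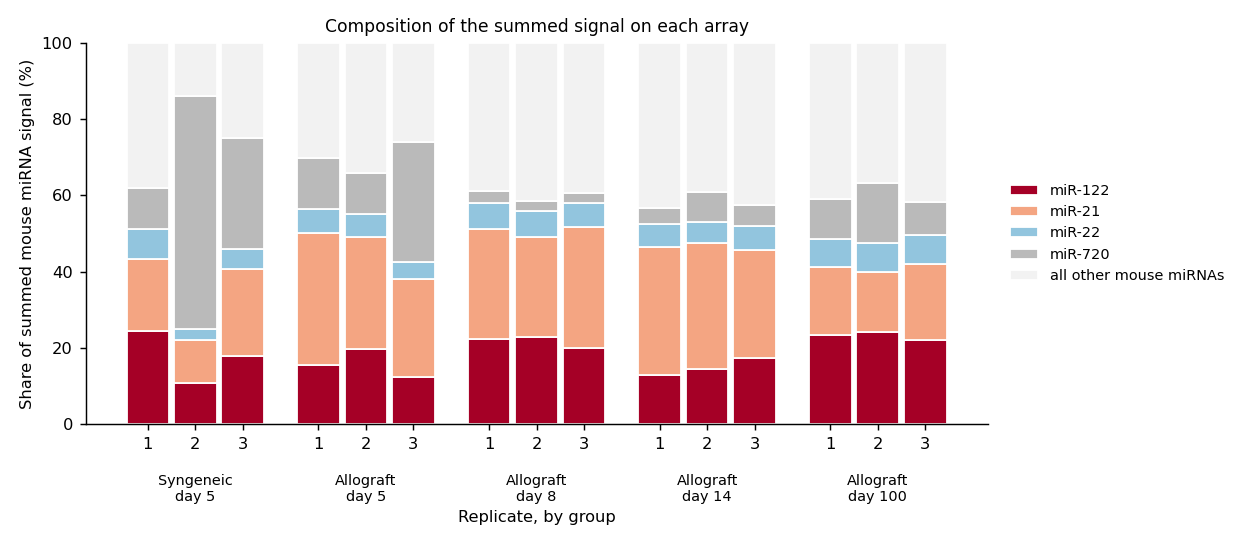
Composition of the summed mouse miRNA signal on each array, in percent, with the replicates of each group side by side. The band of miR-720 takes 61.1% on replicate 2 of the syngeneic grafts and 2.65 to 3.18% on day 8. In the syngeneic grafts and on day 5 the band of miR-122 is smallest where that of miR-720 is largest, which is not so on days 8, 14 and 100.

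Shares of the signal without miR-720 were computed after these values had been seen. The share of miR-122 was then 27.3, 28.0 and 25.2% in the syngeneic grafts, 18.0, 22.1 and 18.2% on day 5, 23.2, 23.4 and 20.5% on day 8, 13.4, 15.8 and 18.5% on day 14, and 26.1, 28.6 and 24.3% on day 100. The syngeneic grafts came to 26.8 ± 1.44% (SD, n = 3) and day 100 to 26.3 ± 2.17%, and the order of the other days was day 8, day 5 and day 14 as for the scaled signal. The log2 fold change over the syngeneic grafts was called on day 14 (-0.77, SE 0.14, limma, adjusted p = 0.000624, 55.3% called) and on day 5 (-0.47, adjusted p = 0.0290, 27.2% called), and not on day 8 (-0.26, adjusted p = 0.154, 46.6% called) or day 100 (-0.03, adjusted p = 0.925, 43.7% called). Day 100 over day 14 was called as well (0.74, adjusted p = 0.00122, 57.3% called). Without miR-720 and miR-21 together, the means were 37.1, 30.6, 31.9, 23.8 and 32.9% in the syngeneic grafts and on days 5, 8, 14 and 100, and day 14 was again called against the syngeneic grafts (-0.64, adjusted p = 0.000848, 53.4% called).

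**Figure D3:**
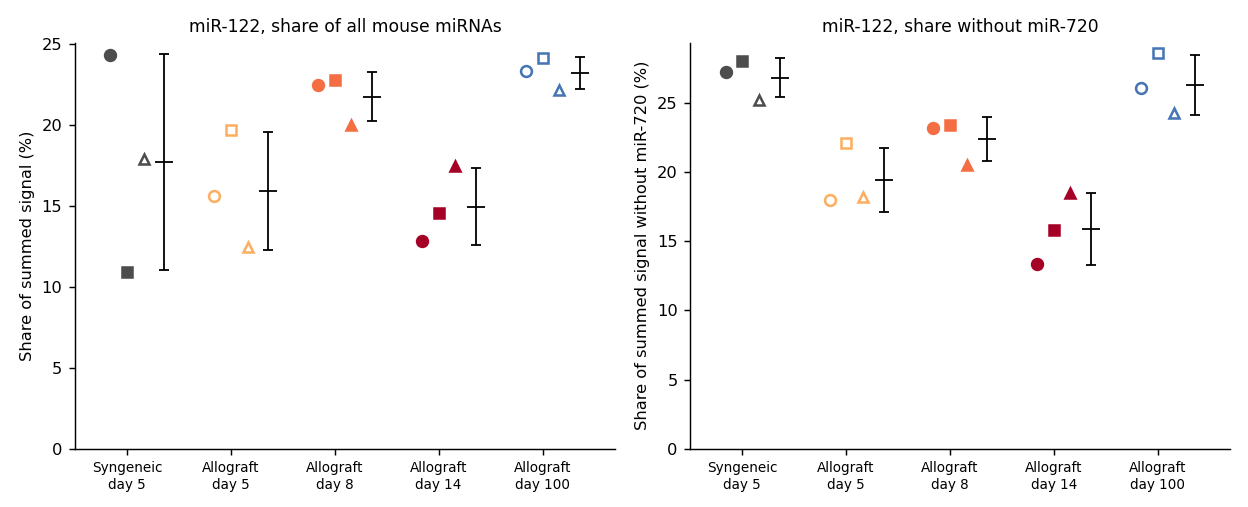
Share of miR-122 in the summed mouse miRNA signal of each array, in percent, over all 567 miRNAs (left) and without miR-720 (right). Symbols, filling and bars are as in the plot of the signal by array. The 3 syngeneic arrays spread from 10.9 to 24.3% on the left and from 25.2 to 28.0% on the right.

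Both probes of miR-122 gave the same course. From probe 1 alone the log2 fold changes of the scaled signal over the syngeneic grafts were, in the order of the days, -0.48, -0.45, -1.08 and -0.42, all of them called (limma, adjusted p = 0.0213, 0.0166, 3.67e-05 and 0.0309). From probe 2 alone they were -0.41, -0.40, -1.03 and -0.33, of which that of day 14 was called (adjusted p = 0.000133).

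**Figure D4:**
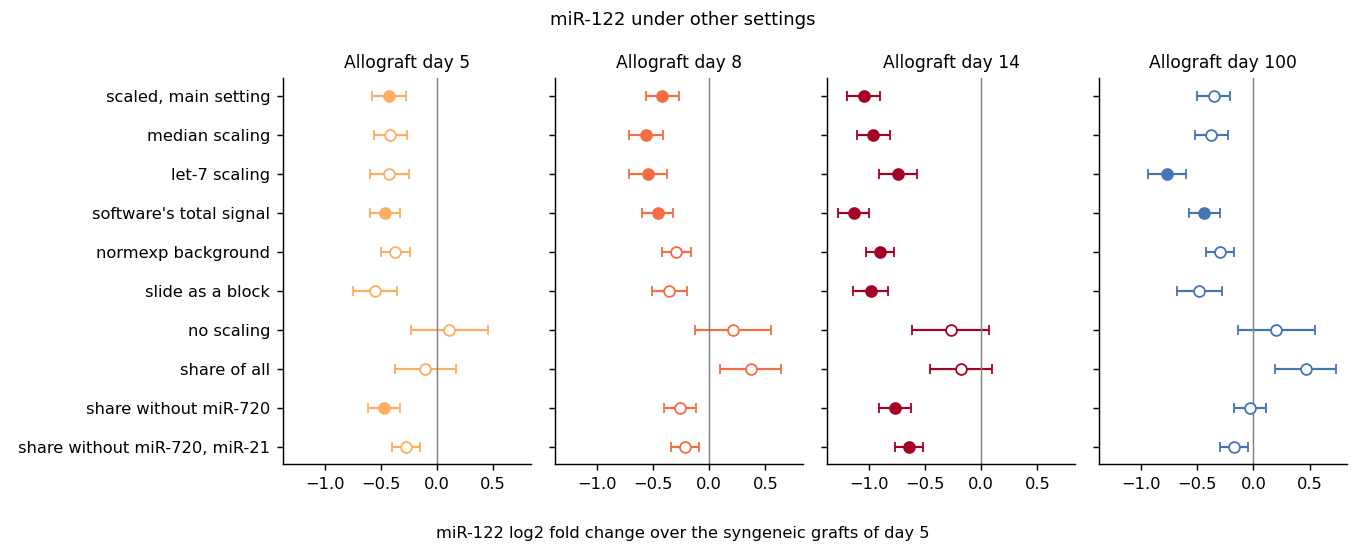
Log2 fold change of miR-122 over the syngeneic grafts of day 5 on each allograft day, under 7 ways of treating the signal and 3 definitions of the share. Points are fitted values, bars are ± 1 SE, and filled points have an adjusted p under 0.05 (limma). The points of day 14 lie between -1.13 and -0.18 and are filled under all settings shown but no scaling and the share of all miRNAs, whereas those of day 100 fall on both sides of 0. Quantile normalization, which turned the direction of day 14 (0.38), is not shown. Scaling to the sum of the other mouse miRNAs, under which the call of day 14 was lost, is not shown either.

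Of 6 other liver-enriched miRNAs, 5 could be tested beside miR-122, and on the scaled signal all of these fell on day 14. This list held miR-192, miR-194 and miR-215, which are abundant in liver, gut and kidney, miR-148a, which is abundant in hepatocytes, and miR-193 and miR-365, which are less restricted to liver. MiR-215 was not detected on any array. On day 14 all 5 tested members were called lower than in the syngeneic grafts, with log2 fold changes of -1.19 to -0.77 and a median of -0.97, beside a median of 0.07 over all tested miRNAs, of which 18.4% were called lower. On days 5, 8 and 100 the number called lower was 2, 4 and 2 of the 5, and none was called higher, where 6.80%, 17.5% and 14.6% of all tested miRNAs were called lower. As a share of the summed signal, the list held 2.69 to 5.21% in the syngeneic grafts and 3.27 to 3.77% on day 14. On that measure these groups overlapped.

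The single members followed miR-122 to different degrees. On the log2 scale of the scaled signal, miR-192 stood at 1.61, 1.80 and 1.94 in the syngeneic grafts, at 0.66, 1.02 and 0.78 on day 14 and at 1.35, 1.39 and 1.31 on day 100. It was called lower on day 8 (-0.47), day 14 (-0.97) and day 100 (-0.43), and its value on day 5 was -0.21 (adjusted p = 0.258). MiR-194 was called lower on all 4 days, by -0.50, -0.41, -0.99 and -0.48. MiR-148a was called lower on days 5, 8 and 14 (-0.48, -0.81 and -1.19), and its value on day 100 was -0.32 (adjusted p = 0.137). Its call on day 5 was narrow (limma, adjusted p = 0.0495).
MiR-193 was called lower on day 8 (-1.03) and day 14 (-0.96), where its syngeneic arrays spread from -1.24 to 0.02 on the log2 scale. Its call on day 14 was lost without replicate 2 of the syngeneic grafts (-0.66, limma, adjusted p = 0.0619) or replicate 1 of day 14 (-0.81, adjusted p = 0.0678), and under 8 of 23 other settings. MiR-365 was called lower on day 14 only among the 4 days (-0.77), and its direction on day 14 turned without scaling (0.0088) and with the sum of the other miRNAs as the scale (0.051), while the call was lost under 6 more of the 23 settings. MiR-192, miR-194 and miR-148a lost theirs on day 14 under no scaling and the sum of the other miRNAs, and under none of the remaining settings or fits that left out an array. From day 14 to day 100, miR-192, miR-194, miR-148a and miR-365 rose by 0.53, 0.52, 0.87 and 1.16 (limma, adjusted p = 0.00645, 0.00880, 0.00177 and 0.00122), and miR-193 differed by 0.67 (adjusted p = 0.0657).

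**Figure D5:**
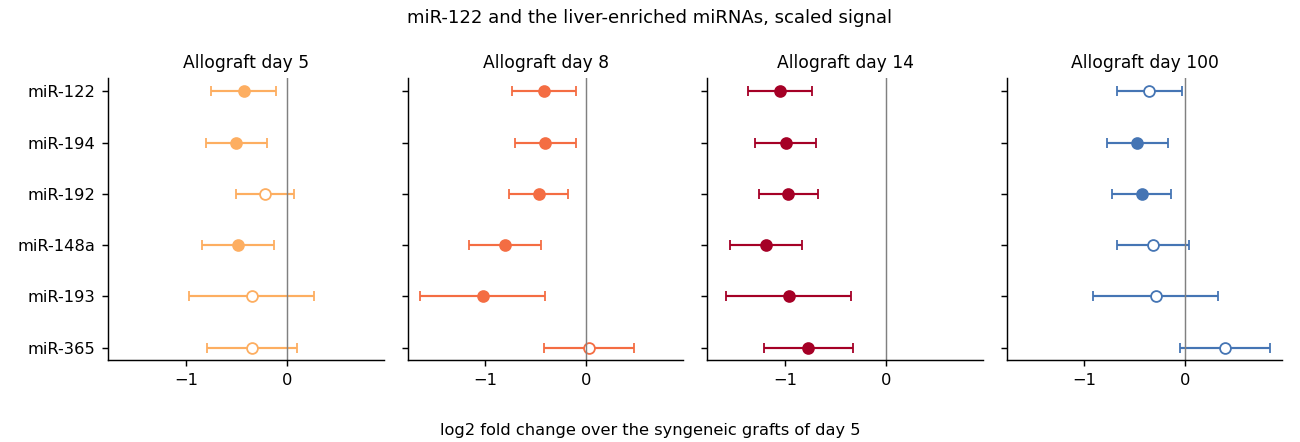
Log2 fold change of miR-122 and of the 5 tested liver-enriched miRNAs over the syngeneic grafts of day 5, on the scaled signal, in 1 panel per allograft day. Bars are 95% intervals and filled points have an adjusted p under 0.05 (limma). All 6 points of day 14 are filled and lie between -1.19 and -0.77, and on day 100 those of miR-192 and miR-194 are.

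Markers of leukocytes moved the opposite way on the same arrays, whereas the erythroid list was mixed. Of 8 leukocyte miRNAs, miR-142-3p, miR-142-5p, miR-223 (a myeloid miRNA), miR-155 (raised in activated lymphocytes and macrophages), miR-146a (a brake on innate signaling) and miR-342-3p were tested, and miR-150 was not detected on any array. All 6 were called higher than in the syngeneic grafts on days 5 and 14, 4 on day 8 and 3 on day 100, where 18.4%, 27.2%, 23.3% and 16.5% of all tested miRNAs were called higher. MiR-142-5p, miR-155 and miR-342-3p were detected on 13, 10 and 12 of the 15 arrays. Detection in 1 whole group was enough to be tested, so they could enter through allografts in which they were high. Their calls are not independent of that rule. The others were detected on all 15 arrays. Of these, miR-223 and miR-146a were called higher on all 4 days, and miR-142-3p on days 5 and 14. On day 14, miR-142-3p lost its call in 4 of the 15 fits that left out 1 array and under 4 of 23 other settings. MiR-142-5p lost its call under 4 of 22 settings, miR-155 under 1 of 22 and miR-146a under 1 of 23. MiR-223 and miR-342-3p kept theirs under all of these settings. The summed scaled signal of the list was 0.714 to 1.78 in the syngeneic grafts, 3.22 to 8.37 on day 5, 2.46 to 2.87 on day 8, 3.29 to 4.48 on day 14 and 1.25 to 1.67 on day 100. The largest rise in the list was that of miR-342-3p on day 14 (log2 fold change 4.04, limma, adjusted p = 4.16e-09), from -5.21, -5.21 and -4.75 on the log2 scale, where -5.21 is the floor set for signals near 0, to -0.78, -1.27 and -0.99.
Of 3 erythroid miRNAs 2 were tested, and miR-451 was called higher on days 5, 8 and 14 (0.99, 1.21 and 1.55), on day 5 narrowly (limma, adjusted p = 0.0495). The other, miR-144, was called lower on day 8 (-1.57, limma, adjusted p = 0.0183), and its values were 0.15 on day 5, 0.012 on day 14 and -1.26 on day 100 (adjusted p = 0.0559). MiR-144 was detected on 10 of the 15 arrays. Its day 8 values lay near the floor, at -4.72, -5.13 and -4.83 on the log2 scale. For the stromal and endothelial list, 2 of 6 could be tested (miR-126-3p and miR-214) and none was called on any day, with the summed scaled signal at 0.834 to 1.18 over all 15 arrays. The part of these cell types in the fall of miR-122 was not tested.

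Over the 15 arrays, the log2 scaled signal of miR-122 ran most closely with miR-194 (Pearson's r = 0.93), miR-192 (0.92), miR-148a (0.88), miR-22 (0.86) and miR-101b (0.81) among the other 102 tested miRNAs, the same 3 leading that are shown by sequence above. Farthest from it were miR-27a (-0.87), miR-342-3p (-0.82) and miR-17* (-0.82, with 10 of its arrays at the floor). Without the 2 arrays farthest from the median, replicates 1 and 2 of day 14, these values were 0.88, 0.86, 0.86, 0.80 and 0.78 for the former and -0.77, -0.80 and -0.52 for the latter. These are descriptions without a test, since the arrays of a group share their condition and all miRNAs of an array share 1 scaling value. Taken within groups, as deviations from the group means, the correlations were 0.49 for miR-194, 0.66 for miR-192 and 0.46 for miR-148a. Several other miRNAs stood above miR-194 and miR-148a there, among them let-7b (0.53) and let-7c (0.52). MiR-27a, miR-342-3p and miR-17* were at -0.26, 0.08 and -0.42 within groups.
On unscaled intensities, miR-194, miR-192 and miR-148a were at 0.94, 0.92 and 0.87 with miR-122, miR-22 at 0.82 and miR-101b at 0.54, beside 0.87 for miR-26b, 0.85 for let-7g and 0.84 for let-7f, which were named after their values were seen, and miR-27a and miR-342-3p were at 0.16 and 0.05. MiR-22, which is abundant in liver and in many other tissues, was called lower on day 8 (-0.36) and day 14 (-0.57), with the direction on day 14 turning without scaling (0.21), with quantile normalization (0.63) and with the sum of the other miRNAs (0.25). MiR-101b was called lower on all 4 days, by -0.76, -1.29, -2.00 and -1.57.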

How the data were processed

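The authors deposited, per the file headers, the files that Feature Extraction (Agilent, version 9.5.1.1) wrote for 15 arrays: background-subtracted intensity of each spot on a linear scale, median intensities of spot and surroundings, a total signal per miRNA, and flags. No normalization between arrays is stated. The authors' table of log2 values was not used.

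Control and outlier spots were left out, spots were averaged per probe, and the probes of a miRNA were added up to its signal. A miRNA was detected where at least 0.5 of a probe's spots were well above background. For each array, the 75th percentile of the 52 miRNAs with detection throughout served as the scale. Scaled signals below 0.0270 (log2 -5.21) were set to it before taking log2. The 103 mouse miRNAs with detection in a whole group (3 arrays) or more were fitted with limma (version 3.58.1, R 4.3.3), 1 mean per group over 15 arrays, with Benjamini-Hochberg adjustment within each comparison and a threshold of 0.05. Shares set negative signals to 0 and were fitted likewise. Exact tests were two-sided for pairs and used Python 3.11.15 with numpy 2.4.6 and scipy 1.17.1. The fits were tested on simulated data. No 2 arrays of a group were copies, and p-values measure the spread between mice. The number of arrays limits the precision. Alternatives covered scaling, probe summary, background, filter, floor, test, moderation, blocks, share denominator and each array left out. The text names miR-122, the members of the lists, and the 5 miRNAs most and the 3 least correlated with it, besides miR-720 and miR-21, which were named after their values were seen. The members, lists and tests were chosen with earlier results of these data known.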

Additional observations from a re-analysis of the deposited data

Results flagged for a closer look

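In limma's test of the difference between allograft days, the log2 scaled signal of miR-122 on day 14 was -0.62 from day 5 and -0.63 from day 8, and on day 100 it was 0.69 above day 14. All 3 comparisons use the arrays of day 14, and days 5 and 100 lay on the other slide from day 14. With the slide as a block the differences from day 5 (-0.43, adjusted p = 0.355) and of day 100 (0.50, adjusted p = 0.197) were not called, and the call against day 8 was lost in 10 of the 15 fits that left out 1 array and under 11 of 23 other settings.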

How the results depend on the processing

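A bare day below means the log2 fold change of miR-122 on that day over the syngeneic grafts, and the cause of each difference was not tested. On the scaled signal, the fall of day 14 kept its direction and its call under 20 of 23 other settings (counted without those that left out an array), that of day 8 under 11 of 23 and that of day 5 under 4 of 23. The settings of filter, floor, test, moderation and replicate block leave the log2 fold change itself unchanged. Under them only the call could change, not the direction. The exceptions for day 14 were no scaling (-0.27), the sum of the other mouse miRNAs as the scale (-0.23) and quantile normalization (0.38).

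Among the scalings, the 75th percentile over all mouse miRNAs gave -0.41 on day 5, -0.49 on day 8, -0.082 for day 8 over day 5, -0.72 for day 14 over day 5 and -0.64 for day 14 over day 8, with no call. The median gave -0.42 on day 5, -0.15 for day 8 over day 5 and -0.40 for day 14 over day 8. Quantile normalization turned day 5 (0.069), day 8 (0.38), day 100 (1.097) and day 14 over day 5 (0.31), and left day 14 over day 8 at 0, day 100 over day 14 at 0.72 and F at 2.58. Without scaling, day 5 (0.11), day 8 (0.21), day 100 (0.20) and day 100 over day 8 (-0.0067) turned, and day 14 over day 5 (-0.38), day 14 over day 8 (-0.48), day 100 over day 14 (0.48) and F (0.687) lost their calls. The sum of the other mouse miRNAs turned day 8 (0.44) and day 100 (0.56), and day 5 (-0.14), day 14 over day 5 (-0.093), day 14 over day 8 (-0.67) and day 100 over day 14 (0.79) were not called. Let-7 scaling turned day 8 over day 5 (-0.12), day 100 over day 5 (-0.35), day 100 over day 8 (-0.22) and day 100 over day 14 (-0.031), called day 100 (-0.77), and did not call day 5 (-0.43), day 14 over day 5 (-0.32) or day 14 over day 8 (-0.19). On day 14, miR-22 turned under quantile normalization (0.63), no scaling (0.21) and the sum (0.25), miR-365 under no scaling (0.0088) and the sum (0.051), and miR-17* under normexp (-0.30).

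Among the summaries of the signal, the brightest probe did not call day 5 (-0.30) or day 8 (-0.41) and turned day 8 over day 5 (-0.11) and day 100 over day 5 (-0.0095). The mean of log2 over probes did not call day 5 (-0.50), day 8 (-0.33), day 14 over day 5 (-0.41), day 14 over day 8 (-0.58) or day 100 over day 14 (0.38), called day 100 (-0.52), and turned day 100 over day 5 (-0.027) and over day 8 (-0.20). Day 100 was also called with the software's total signal (-0.44), with probe 1 alone (-0.42) and, unchanged at -0.36, with only miRNAs detected on all 15 arrays and with the methods' t-test without adjustment. Probe 2 alone did not call day 5 (-0.41) or day 8 (-0.40), and normexp did not call day 5 (-0.37) or day 8 (-0.29) and turned day 100 over day 8 (-0.0050).

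With the value itself unchanged, day 5 (-0.43) lost its call with no filter, a lower floor (divided by 4), a fit of only the 2 groups in question, the adjusted t-test of the methods, a trend or robust moderation in limma, and the replicate block. Day 8 (-0.42) lost it with no filter and with a trend. Day 14 over day 5 (-0.62) lost it with no filter, only the groups compared and the adjusted t-test. Day 14 over day 8 (-0.63) lost it with no filter, the lower floor, the adjusted t-test and the replicate block. The replicate numbers did not pair the arrays: the deviations of arrays with the same number correlated by -0.055 on average, above 0.1 in 9 of 30 pairs, and the block changed no other call of miR-122.

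With the slide as a block, day 5 (-0.55), day 8 (-0.36), day 14 over day 5 (-0.43) and day 100 over day 14 (0.50) were not called, and day 100 over day 8 turned (-0.13), as did the share of day 14 over day 5 (0.062) and of day 100 over day 8 (-0.042). Slide 1 alone did not call day 8 (-0.36), nor slide 2 alone day 5 (-0.55), where the single syngeneic array is assumed to vary like the other groups.

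For the share, the fit of only the groups compared called day 14 over day 8 (-0.55) and day 100 over day 14 (0.64). The share without miR-720 called day 5 (-0.47), day 14 (-0.77), day 100 over day 5 (0.44), day 14 over day 8 (-0.51), day 100 over day 14 (0.74) and F (10.3), and turned day 8 (-0.26) and day 100 (-0.030). Without miR-720 and miR-21 it called day 14 (-0.64), day 14 over day 5 (-0.37), day 100 over day 14 (0.47) and F (7.27), and turned day 8 (-0.22) and day 100 (-0.17). These 2 denominators were chosen after seeing the data.

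Leaving out each array in turn, the scaled signal ranged from -0.48 to -0.34 on day 5, from -0.47 to -0.36 on day 8, from -0.081 to 0.056 for day 8 over day 5, from -0.71 to -0.49 for day 14 over day 5, from -0.017 to 0.14 for day 100 over day 5, from -0.70 to -0.50 for day 14 over day 8 and from -0.018 to 0.13 for day 100 over day 8. The share ranged from -0.42 to 0.16 on day 5, from 0.056 to 0.63 on day 8, from -0.49 to 0.086 on day 14, from 0.15 to 0.73 on day 100, from -0.24 to 0.090 for day 14 over day 5, from 0.40 to 0.73 for day 100 over day 5 and from 0.54 to 0.76 for day 100 over day 14. Without replicate 1 of the syngeneic grafts, the share was called higher on day 8 (0.63), day 100 (0.73) and day 100 over day 14 (0.64), and turned on day 5 (0.16) and day 14 (0.086). Without replicate 2, day 100 over day 5 (0.57) and day 100 over day 14 (0.64) were called.

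Of the 23 tested members of the 5 lists, 10, 11, 15 and 8 were called on days 5, 8, 14 and 100, where 25.2%, 40.8%, 45.6% and 31.1% of all tested miRNAs were called. The percentage of all tested miRNAs called stands in brackets after each count that follows. On day 5 the count was 6 with the 75th percentile over all miRNAs (9.71%), quantile normalization (11.7%), the sum of the others (14.6%) and the mean of log2 (12.6%), 5 with normexp (8.74%), 4 with the slide block (4.85%), 2 with no filter (0.882%) and on slide 2 alone (4.85%), and 1 with only the groups compared (0.971%) and the adjusted t-test (1.94%). On day 8 it was 7 with the percentile over all (25.2%) and normexp (23.3%), and 6 with no filter (3.70%) and the adjusted t-test (19.4%). On day 14 it was 9 with no filter (4.94%) and 7 with the adjusted t-test (20.4%). On day 100 it was 15 with the sum of the others (40.8%), 5 with the mean of log2 (29.1%), 4 with normexp (13.6%) and the slide block (15.5%), 3 on slide 2 alone (11.7%), 2 with the percentile over all (7.77%), 1 with no filter (1.06%) and only the groups compared (1.94%), and 0 with the adjusted t-test (0.971%), which called 6 without adjustment. Leaving out an array gave 1 to 12 on day 100, with 3 without replicate 2 of the syngeneic grafts (13.6%) and 1 without replicate 3 of day 100 (10.7%).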
